A study of Mus musculus with 8 samples.

Results

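The cytosolic ribosomal protein genes encode the proteins of the large 60S and small 40S subunits of the ribosome. They were followed here in RNA-Seq of brown adipose tissue (BAT) from male C57BL/6 mice, in 8 libraries. Members were chosen by symbol alone, as autosomal rows whose symbol is Rpl or Rps followed by a number, or Rpsa, Rplp0, Rplp1 or Rplp2. This gave 81 of the 49452 genes in the deposited table. Among them, 42 encode large-subunit proteins, 30 encode small-subunit proteins, 8 are paralogs or near-copies, and 1 (Rps19bp1) encodes a protein that binds a ribosomal protein but is not part of the ribosome. The 72 genes of both subunits are called the core genes below.

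The libraries fall into 4 groups of 2 mice. At 10 to 12 weeks of age, mice were either kept at 22 °C (replicates 4 and 7) or moved to 4 °C (replicates 2 and 11) for 20 h, with a further 4 h without food before sacrifice. A fast of the 22 °C mice is not stated, so cold and food withdrawal cannot be told apart. At 32 weeks of age, after 28 weeks of feeding, mice had received either normal chow (NCD, replicates 6 and 8) or a high-fat diet (HFD, replicates 2 and 6). No mouse carried a transgene or deletion. Values are FPKM, a fragment count scaled by transcript length and library size, rescaled so that autosomal mRNA and long noncoding RNA genes summed to the same total in each library.

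In every nucleated cell, ribosomal proteins are made in large and matched amounts for assembly with ribosomal RNA, so their mRNAs are among the most abundant. These mRNAs start with a run of pyrimidines, the terminal oligopyrimidine motif, through which mTOR and the RNA-binding protein Larp1 control their translation. FPKM report mRNA level and not this translational step. In BAT, cold exposure is known to raise protein synthesis and tissue growth along with thermogenesis.

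Promoter sequences show what the family shares upstream of the mRNA. RefSeq entries of 300 bases (250 before and 50 from the annotated start, GRCm38.p6) matched 61 of the 81 members, with 73 entries in all, of which 62 belong to core genes. A run of at least 8 pyrimidines on the sense strand, within 30 bases either side of the start, was present in 51.6% of the 62 core entries, against 22.9% of all 32851 entries. The hexamer CGGAAG, bound by ETS-family factors and searched on both strands, was present in 62.9% of core entries against 16.9% of all. The YY1-type octamer AAGATGGC, which can share its first 3 letters with the end of that hexamer, was present in 11.3% against 2.75%. TATAAA was present on either strand in 6.45% against 13.6%. Core entries had a median GC content of 59.0% and all entries 52.7%. A match is a description of these letters only.

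The 50 bases around the start (30 before and 20 from it) are given for members described below, with pyrimidine runs of 8 or more in capitals. The first 4 carry such a run at or near the start, Rpl22l1 carries one just after it, and Rpsa and Rpl41 carry none in the window.

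Rpl7a (chr2:26910777-26910826, plus strand): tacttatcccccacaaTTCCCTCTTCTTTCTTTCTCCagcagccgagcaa

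Rps6 (chr4:86857348-86857397, minus strand): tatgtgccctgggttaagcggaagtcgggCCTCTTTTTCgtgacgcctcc

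Rps27 (chr3:90213629-90213678, minus strand): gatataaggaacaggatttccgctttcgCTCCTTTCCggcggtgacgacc

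Rps15a (chr7:118116128-118116177, minus strand): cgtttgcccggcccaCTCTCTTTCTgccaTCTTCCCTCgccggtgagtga

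Rpl22l1 (chr3:28805478-28805527, plus strand): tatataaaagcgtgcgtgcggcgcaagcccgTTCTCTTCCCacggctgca

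Rpsa (chr9:120127736-120127785, plus strand): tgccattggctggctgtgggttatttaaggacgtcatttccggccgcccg

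Rpl41 (chr10:128549149-128549198, minus strand): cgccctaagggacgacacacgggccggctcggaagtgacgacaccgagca

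Some facts of the whole data set touch every value below. The libraries split into 4 in which the satellite-repeat gene Gm10800 exceeded 100 FPKM (22 °C replicate 4, 4 °C replicate 11, NCD replicate 8 and HFD replicate 2; satellite-high) and 4 in which it did not (satellite-low). Gm10800 and the related Gm26870 took up to 12.8% of the autosomal sum, in HFD replicate 2. Their share was 9.59% in NCD replicate 8 and 6.24% in 22 °C replicate 4. In 4 °C replicate 11 it was only 0.483%, so the satellite-high libraries were not alike in this share. Each group holds 1 library of each kind. All 2613 genes on the X chromosome are listed at 0 in 3 libraries, which is why only autosomal members are used. The BAT marker Ucp1 was high in all libraries, from 804 to 1670 at 22 °C and from 5073 to 5136 at 4 °C in rescaled FPKM. Skeletal muscle markers summed to between 37.1 (HFD replicate 6) and 3541 (4 °C replicate 2). One fragment on a 2000-base transcript corresponds to 0.0044 to 0.0060 FPKM, which puts the median core gene at roughly 8207 to 21249 fragments in each library. Counting error is therefore small beside the differences between libraries for core genes.

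Core ribosomal protein genes were expressed within a narrow band. Over the 8 libraries, 70 of the 72 core genes had a mean between 50 and 400 rescaled FPKM, with a median of 150.2 and a 10th to 90th percentile range of 86.7 to 293. Rpl41, which encodes a very short basic peptide of the large subunit, stood highest. Its levels were 413 and 384 at 22 °C, 485 and 389 at 4 °C, 450 and 276 on NCD, and 373 and 574 on HFD. Rps27, a zinc-finger protein of the small subunit, came next with a range of 289 to 482. Rplp1 of the ribosomal stalk ranged from 275 to 496 and Rpl13a from 236 to 441. Ranges of these 4 genes overlapped. Within libraries, Rpl41 lay above Rpl13a in each of the 8, and every other pair of the 4 genes changed order between libraries. The coefficient of variation over the 8 libraries had a median of 19.5% among core genes and was lowest for Rpl27, at 8.33%.

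The core gene that stood outside this band at the low end was Rps16. Its row (ENSMUSG00000037563, chr7:28350652-28353155) held 0.759 and 0.592 at 22 °C, 0.469 and 0.632 at 4 °C, 0.511 and 11.3 on NCD, and 6.77 and 1.15 on HFD. NCD replicate 8 and HFD replicate 2 were high and the other 6 libraries low, which crosses both diets. Its values are far from those of the other small-subunit genes, and no direction is drawn from them. The next lowest core gene, Rpl37, ranged from 36.8 to 71.5.

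Order of levels was kept between libraries. Spearman's rho over the 72 core genes ran from 0.863 to 0.977 in the 28 pairs of libraries. Pairs of the same library kind had a median rho of 0.954 and pairs of different kinds 0.920. The genes share the transcript lengths used for FPKM, so these values are a description.

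Against the median core gene of each library, 7 core genes were higher in all 4 satellite-high libraries than in all 4 others (among them Rpl4, Rpl6, Rpl11, Rpl17 and Rpl23), and 6 were lower (among them Rps7, Rps20, Rps25 and Rps27a). Among all genes on the same scale, 4.09% were higher and 0.307% lower by that rule. The named genes were picked after their values were seen. Small nucleolar RNA genes lie inside 27 of the 72 core genes in the annotation, among them 6 of the 7 higher genes and 2 of the 6 lower ones. The median difference was 0.11 log2 units for the 27 host genes and -0.05 for the 45 others. Genes and libraries here share depth and processing, so no test was made.

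**Figure D1:**
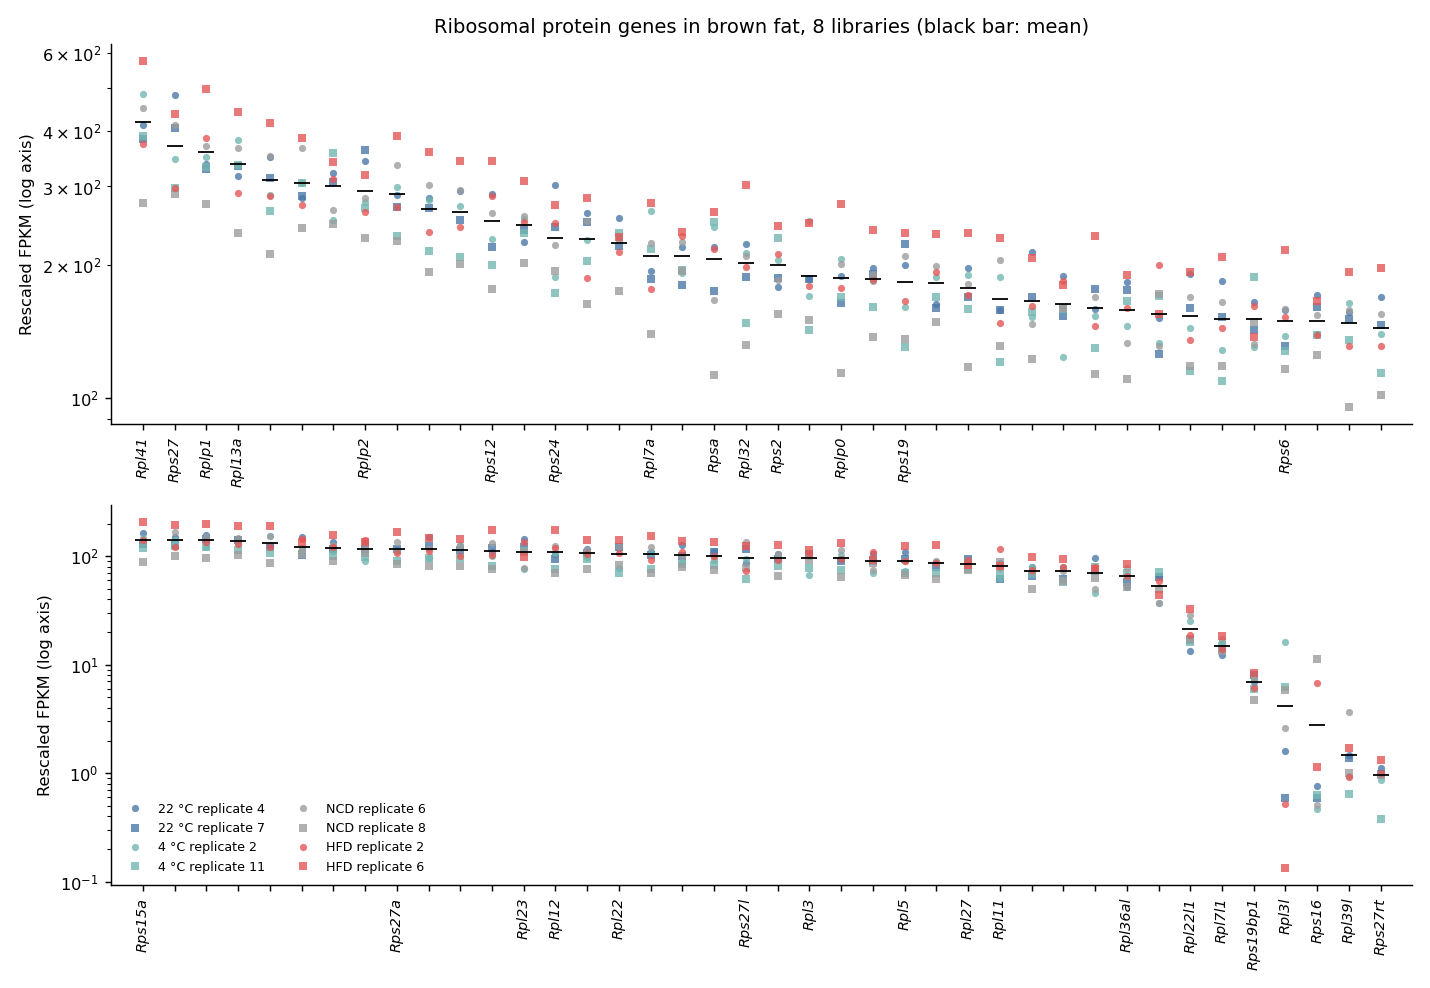
Rescaled FPKM (log axis) of the ribosomal protein genes in each of the 8 libraries, ordered by mean from upper left to lower right, with Rpl10l left out because its mean lies below 0.05 and with labels only on genes named in the text. Symbols give libraries by group and replicate, and the black bar is the mean. Core genes lie mostly between 50 and 400, and Rps16, Rps19bp1 and the paralogs other than Rps27l and Rpl36al lie at the lower right.

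Most paralogs lay below the band of the core genes, and 2 reached it. Rps27l, a close relative of Rps27, ranged from 61.7 to 135, and Rpl36al, an autosomal near-copy of the X-linked Rpl36a, from 52.1 to 85.5. Rpl22l1 ranged from 13.3 to 32.8 and Rpl7l1, which takes part in subunit assembly, from 12.3 to 18.3. Rpl39l, known for high expression in testis, ranged from 0.650 to 3.69 and Rps27rt from 0.377 to 1.33. Rpl10l, another testis gene, was listed at 0 in 6 libraries and reached 0.0360 in HFD replicate 2. Rps19bp1, a regulator of the deacetylase Sirt1, ranged from 4.77 to 8.35.

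Summed over the 81 genes, ribosomal protein mRNA made up a lower mean share of the autosomal total at 4 °C than at 22 °C. In FPKM as deposited these group means stood in the reverse order. The mean share was higher on HFD than on NCD. Replicates were far apart. At 22 °C the share was 5.71% and 5.24% (5.48% ± 0.336, SD, n = 2). At 4 °C it was 5.17% and 4.74% (4.96% ± 0.308). The lowest 22 °C library lay just above the highest 4 °C library. On NCD the share was 5.59% and 4.05% (4.82% ± 1.09), and on HFD 5.20% and 6.80% (6.00% ± 1.13). The diet groups overlapped, with NCD replicate 8 lowest and HFD replicate 6 highest of all 8 libraries. With 2 libraries a group, a permutation test could not reach 0.05 and none was run. At 4 °C all 6 proliferation markers were also lower in both libraries, with sums of 1.92 and 1.96 at 22 °C against 0.980 and 1.08. Of 8 lymphoid markers 7 were lower in both, with sums of 5.0 and 5.5 against 2.9 and 2.3. In the other direction, all 11 skeletal muscle markers were higher in both, with sums of 704 and 168 against 3541 and 2037. Brown adipocyte markers summed to 8698 and 9415 against 14478 and 15159, with 4 of 11 higher and 4 lower in both. Among all genes tested, 44.4% were lower and 18.6% higher in both 4 °C libraries. The part of the marker lists in the share was not tested.

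This share depends on what the libraries are scaled to. As deposited, the summed FPKM were 11489 and 10350 at 22 °C against 15242 and 11461 at 4 °C. The group means then stood in the opposite order, and the groups overlapped. Without the satellite genes in the total, the shares were 6.09% and 5.24% at 22 °C, 5.18% and 4.76% at 4 °C, 5.59% and 4.48% on NCD, and 5.96% and 6.80% on HFD. The diet groups did not overlap on that scale. Large-subunit genes summed to 1.33 and 1.34 times the small-subunit genes at 22 °C and to 1.35 and 1.41 times at 4 °C. On NCD this ratio was 1.27 and 1.32, and on HFD 1.33 and 1.28.

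**Figure D2:**
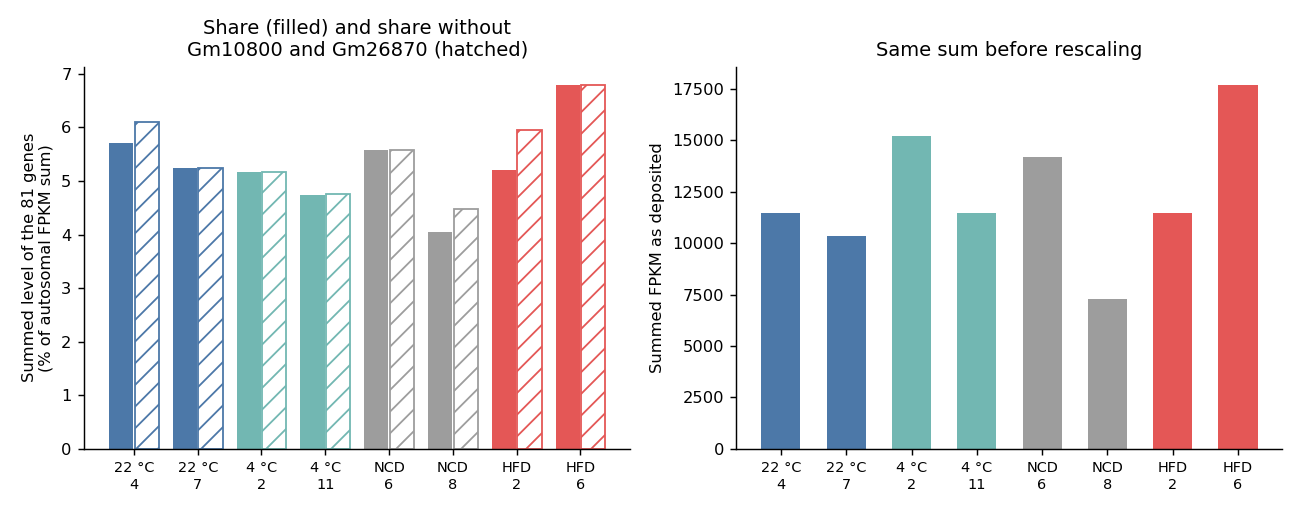
Left, summed level of the 81 genes as a percentage of the autosomal FPKM sum in each library (filled) and after removal of the satellite genes Gm10800 and Gm26870 from that sum (hatched). Right, the same sum in FPKM as deposited. The 4 °C libraries are lower than the 22 °C libraries on the left, at 5.17% and 4.74%, and not on the right.

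Cold exposure was compared first, to ask which genes of the family follow 24 h at 4 °C. No member passed the threshold of an adjusted p under 0.05 in either direction (0 of 80 tested; limma on log2 of rescaled FPKM plus 1, Benjamini-Hochberg over 17470 genes). Among all genes, 2.73% were called higher and 4.41% lower. At an unadjusted p under 0.05 there were 5 members: Rpl3l higher, and Rpl22, Rpl3, Rpl5 and Rpl39l lower. Among all genes 31.0% reached that level, so 5 of 80 is below the background. Without the intensity trend in limma, Rpl22 alone was called (lower, as were 3.31% of all genes), and with library kind as a covariate Rpl3l alone (higher, as were 3.07%). The median log2 fold change of the 80 members was -0.17, beside -0.10 over all genes tested. Of the 72 core genes, 58 had a negative and 14 a positive log2 fold change, and with FPKM as deposited this turned to 11 negative and 61 positive.

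In 32 members each 4 °C value was below each 22 °C value, and in 9 it was above. Among all genes tested, 44.4% were below and 18.6% above by the same rule, beside which 32 and 9 of 80 are not large. Both directions depend on the scaling, since FPKM as deposited gave 2 lower and 23 higher (20.6% and 37.9% of all genes), and a median of 0.23 where all genes had 0.07. The satellite-high libraries differed in satellite share, at 6.24% in 22 °C replicate 4 and 0.483% in 4 °C replicate 11. Between them the median difference of the members was -0.34 where all genes had -0.08. Within the satellite-low libraries it was -0.05 where all genes had -0.12, so the members lay below all genes in one pair and above them in the other. That difference was not tested.

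On the rescaled values, the 42 large-subunit genes had a median log2 fold change of -0.18 at 4 °C, with 33 negative. For the 30 small-subunit genes it was -0.19, with 25 negative.

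Rpl22, a large-subunit protein whose loss mice survive and which is known to restrain the mRNA of its paralog Rpl22l1, had the lowest log2 fold change of the core genes. Rpl22 (ENSMUSG00000028936, chr4:152325742-152334071) stood at 119 and 121 rescaled FPKM at 22 °C and at 77.8 and 69.3 at 4 °C. Both cold libraries lay below every other library, the lowest of which was NCD replicate 8 at 83.5. On the log2 scale this was a difference of -0.70 (SE 0.18, adjusted p = 0.075, limma), short of the threshold. As deposited it was -0.29.

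Rpl22l1 (ENSMUSG00000039221, chr3:28805436-28807424) went from 13.3 and 17.0 at 22 °C to 25.3 and 16.2 at 4 °C. The groups overlapped (0.41 on the log2 scale, SE 0.26, adjusted p = 0.34, limma). The difference was 0.10 without 4 °C replicate 2 and 0.72 without 4 °C replicate 11. The ratio of the paralogs within a library needs no scaling between libraries. Rpl22l1 over Rpl22 was 0.112 and 0.140 at 22 °C and 0.326 and 0.234 at 4 °C, with no overlap. On NCD it was 0.236 and 0.207, and on HFD 0.176 and 0.232, so both 22 °C libraries were the lowest of the 8.

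Other core genes with large negative values were Rps24, Rps19, Rpl3, Rpl23 and Rpl5. Rps24 and Rps19, small-subunit proteins mutated in Diamond-Blackfan anemia, had log2 fold changes of -0.59 (SE 0.23) and -0.54 (SE 0.22), with adjusted p of 0.16 and 0.18. Rps24 went from 302 and 243 at 22 °C to 188 and 173 at 4 °C. Rpl3, which lies near the peptidyl transferase centre, went from 105 and 104 to 66.9 and 77.4 (log2 fold change -0.53, SE 0.18, adjusted p = 0.13). Rpl5, which joins Rpl11 and 5S rRNA in a particle that can bind Mdm2, went from 109 and 93.5 to 73.7 and 69.5 (-0.49, SE 0.18, adjusted p = 0.15). In these 4 genes the cold libraries lay below both 22 °C libraries. Rpl23 had -0.52 (SE 0.25, adjusted p = 0.24), and its values of 144 and 122 at 22 °C and 76.4 and 111 at 4 °C also followed library kind. Rpl11, the partner of Rpl5, had 86.9 and 62.2 at 22 °C against 62.8 and 68.6 at 4 °C, which overlap. As deposited the negative values were closer to 0, with -0.17 for Rps24, -0.12 for Rps19, -0.12 for Rpl3, -0.10 for Rpl23 and -0.08 for Rpl5.

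Rpl7a, Rpsa and Rps2 had positive log2 fold changes, while the median of the members was negative. Rpl7a, a large-subunit protein, went from 194 and 186 at 22 °C to 265 and 217 at 4 °C (0.33, SE 0.22, adjusted p = 0.35). Rpsa, a small-subunit protein also described as a laminin receptor precursor, went from 219 and 174 to 243 and 249 (0.33, SE 0.23, adjusted p = 0.37). Rps2, at the mRNA entry channel, went from 178 and 187 to 205 and 230 (0.25, SE 0.20, adjusted p = 0.45). Each was higher in both cold libraries than in both 22 °C ones, and none passed the test. Single libraries moved these values. Rpsa had 0.17 without 22 °C replicate 7 and 0.50 without 22 °C replicate 4. Rpl7a had 0.19 without 4 °C replicate 2 and 0.48 without 4 °C replicate 11. Among paralogs, Rpl36al had 0.28 (SE 0.16, adjusted p = 0.30) and Rpl7l1 0.23 (SE 0.15, adjusted p = 0.34), with no overlap between groups in either. Rps27l had -0.39 (SE 0.29), Rps27rt -0.35 (SE 0.17), Rpl39l -0.44 (SE 0.13) and Rps19bp1 -0.14 (SE 0.16), all with adjusted p over 0.05, the lowest being 0.10 for Rpl39l.

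Set against the median core gene of the same library, these differences do not depend on scaling between libraries. Rpl22 lay 0.43 and 0.29 below the family median at 22 °C (log2 scale) and 0.85 below it in both 4 °C libraries. On NCD and HFD it lay 0.35 to 0.44 below. Rps24 lay 0.91 and 0.71 above the median at 22 °C and 0.42 and 0.46 above it at 4 °C. Rpl7a lay 0.27 and 0.32 above at 22 °C and 0.91 and 0.78 above at 4 °C. Rpsa moved from 0.44 and 0.23 to 0.79 and 0.98, and Rps2 from 0.15 and 0.33 to 0.54 and 0.86. Rpl41 was also further above the median at 4 °C, at 1.78 and 1.62 against 1.36 and 1.37. On this scale 21 core genes were higher and 14 lower in both 4 °C libraries, beside 27.0% and 28.8% of all genes on the same scale, while limma after the same scaling called only Rpl3l among the members (higher, as were 3.59% of all genes).

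**Figure D3:**
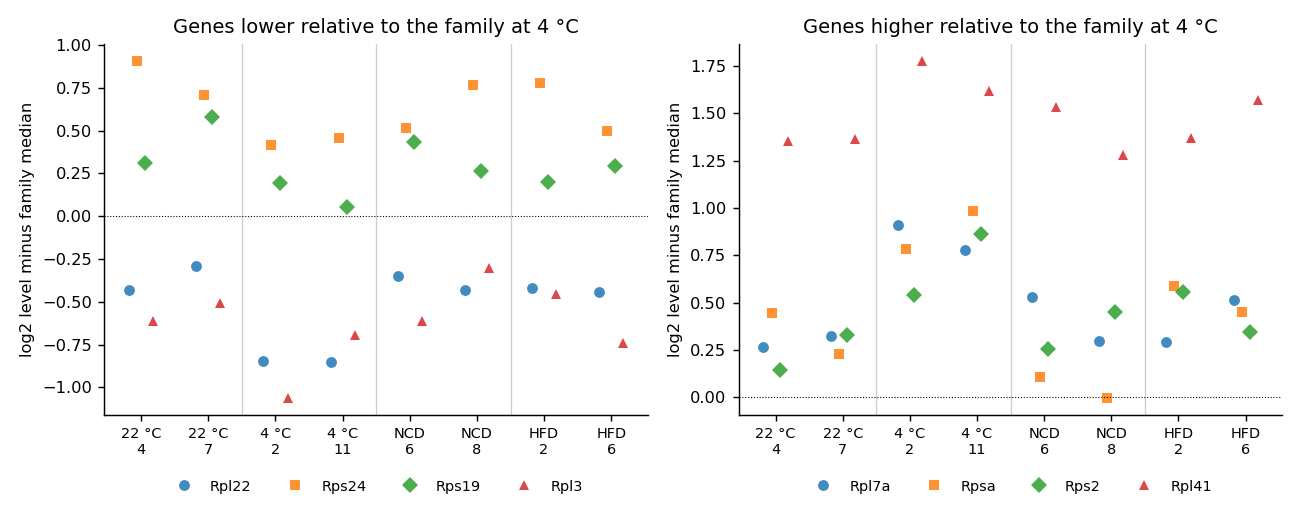
Level of 8 core genes minus the median core gene of the same library (log2 scale, y axis) in the 8 libraries (x axis, group and replicate). Left, Rpl22, Rps24, Rps19 and Rpl3, which were lower relative to the family at 4 °C. Right, Rpl7a, Rpsa, Rps2 and Rpl41, which were higher. Rpl22 sits 0.85 below the median in both 4 °C libraries and no more than 0.44 below it in the other 6.

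Rpl3l, the paralog of Rpl3 found in heart and skeletal muscle, had the largest value of all members. It stood at 1.60 and 0.593 at 22 °C and at 16.0 and 6.20 at 4 °C (log2 difference 2.44, SE 0.48, adjusted p = 0.052). On NCD it was 2.61 and 5.88 and on HFD 0.524 and 0.134 (log2 difference -1.92, SE 0.35, adjusted p = 0.18). The groups did not overlap in either comparison. Adding 1 before taking logs understates the change of such a low gene. Skeletal muscle markers moved with it. Of the 11 found, all 11 had both cold values above both 22 °C values, beside 18.6% of all genes. In 10, both HFD values lay below both NCD values, beside 10.6% of all genes. Summed, they reached 704 and 168 at 22 °C, 3541 and 2037 at 4 °C, 582 and 2103 on NCD, and 231 and 37.1 on HFD. In bulk tissue, more cells of a type and more RNA per cell cannot be told apart, and the part of muscle in the Rpl3l values was not tested. Rpl3l reached at most 24.0% of the Rpl3 level, in 4 °C replicate 2.

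**Figure D4:**
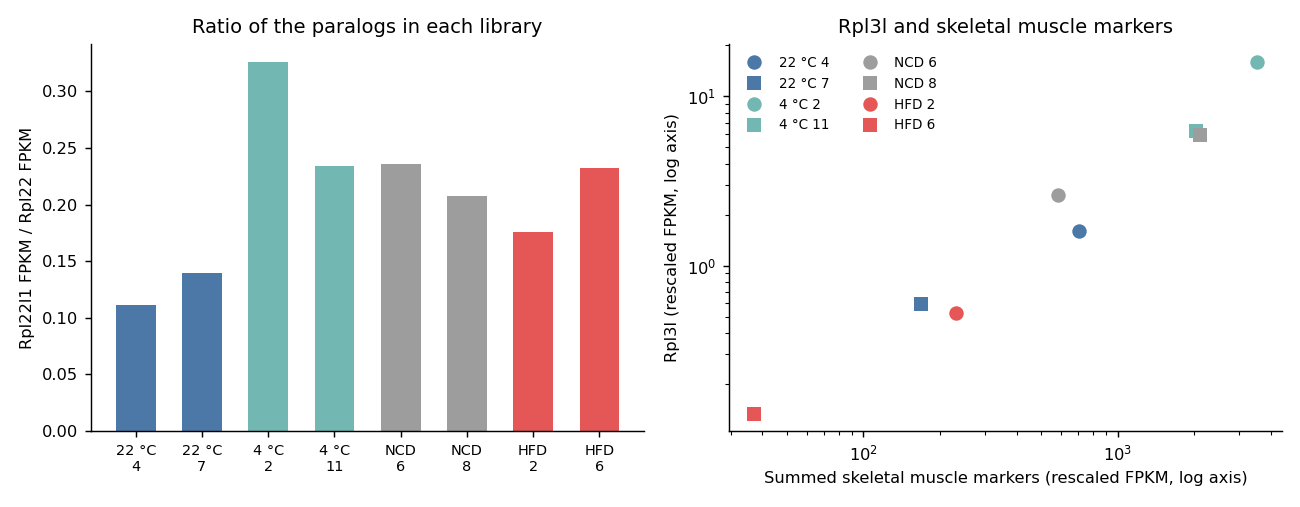
Left, Rpl22l1 FPKM divided by Rpl22 FPKM in each library, lowest in the 22 °C libraries at 0.112 and 0.140. Right, Rpl3l against the summed skeletal muscle markers, both in rescaled FPKM on log axes, 1 point per library. Rpl3l is highest, at 16.0, where muscle markers sum to 3541 and lowest, at 0.134, where they sum to 37.1.

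The diet comparison asks how the family stands in BAT of mice fed HFD for 28 weeks. No member passed the threshold (0 of 80 tested, limma), and neither did any of the 17535 genes (0.0% higher and 0.0% lower). At an unadjusted p under 0.05 there were 2 members, Rpsa higher and Rpl3l lower, and 2338 genes in all (13.3%). Without the intensity trend 0 members were called. Even so, values leaned one way. The members' median log2 fold change was 0.31 beside 0.09 over all genes. The core genes' median level had a pooled SD between replicates of 0.31 log2 units, close to that change. All these genes come from the same 4 libraries, so counts of signs are not counts of separate results. Of the 72 core genes, 71 had a positive value, and the exception was Rps16. With median centring 59 were positive and 13 negative. Without NCD replicate 8 these counts were 51 and 21, and without HFD replicate 6 they were 57 and 15.

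In 22 members each HFD value was above each NCD value, and in 1, Rpl3l, each was below. The same rule held for 33.4% and 10.6% of all genes, so on this scale the number higher in both is close to the background. It depends on the scaling. With median centring 3 of 80 members were higher in both, beside 23.0% of all genes, and as deposited 14, beside 39.9%. It was 41 without the satellite genes, beside 34.6%, 42 with all autosomal rows in the sum, beside 33.2%, and 52 with quantile normalization, beside 21.9%. The difference had the same sign within each library kind. Between the satellite-high libraries, 71 of 72 core genes were higher on HFD, with a median of 0.36 where all genes had 0.04. Between the satellite-low libraries 70 of 72 were higher, with a median of 0.30 where all genes had 0.15. These are 2 pairs of mice. In the satellite-low pair, NCD replicate 6 and HFD replicate 6, the sample names also differ in prefix, as described below.

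With library kind as a covariate, limma gave 51 of 80 members an unadjusted p under 0.05, beside 25.7% of all genes. That fit has 1 residual degree of freedom, and with all 8 libraries in it the number fell to 5 of 80, beside 23.5% of all genes. In the smaller fit Rpsa (adjusted p = 0.039) and Rps15a (0.045) were called higher and Rpl3l lower (0.025), where 3.47% of all genes were called higher and 1.34% lower. Calls of 2 and 1 among 80 are near those shares, and with all 8 libraries no member was called. Markers of other cells also differed. All 8 macrophage markers were higher in both HFD libraries, with sums of 124 and 66.7 on NCD against 295 and 282 on HFD. All 6 proliferation markers were higher too, with sums of 3.25 and 1.29 against 8.10 and 6.29. White adipocyte markers were higher in both HFD libraries in 4 of 5 cases, with sums of 20.6 and 18.4 on NCD against 177 and 157 on HFD. Erythroid markers, of which 3 of 6 were found and 2 were higher in both, summed to 142 and 122 against 197 and 340. Of 11 brown adipocyte markers, 2 were higher and 4 lower in both HFD libraries, with sums that overlap (14778 and 11636 on NCD, 10188 and 12442 on HFD). Cidea, a lipid droplet protein among them, was at 1017 and 976 on NCD and at 486 and 365 on HFD. Adipoq, also among them, overlapped, at 519 and 382 on NCD and at 342 and 428 on HFD. Among all genes tested, 33.4% were higher and 10.6% lower in both HFD libraries. The part of the marker lists in the ribosomal protein values was not tested.

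Rpsa had the largest positive value on HFD. Rpsa (ENSMUSG00000032518, chr9:120127689-120132369) stood at 167 and 113 on NCD and at 217 and 263 on HFD, with no overlap. This was a difference of 0.80 on the log2 scale (SE 0.32, adjusted p = 0.37, limma). Against the median core gene it lay 0.11 log2 units above in NCD replicate 6 and level in NCD replicate 8, and 0.59 and 0.45 above on HFD.

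Rpl12 and Rplp0 lie at the base of the stalk where elongation factors bind. Rpl12 was at 125 and 70.4 on NCD and at 119 and 174 on HFD (0.61, SE 0.38, adjusted p = 0.58). Rplp0 was at 200 and 114 on NCD and at 177 and 275 on HFD (0.54, SE 0.40, adjusted p = 0.65). In both genes the groups overlapped. The acidic stalk proteins had 0.46 for Rplp1 (SE 0.34) and 0.18 for Rplp2 (SE 0.30). At 4 °C Rplp0 had 0.09 (SE 0.22), Rplp1 0.04 (SE 0.22), Rpl12 -0.14 (SE 0.23) and Rplp2 -0.37 (SE 0.22), none past the test. The first 3 lie within their SE of 0, and as deposited all 4 were positive.

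Rps15a, a small-subunit protein, was at 139 and 88.2 on NCD and at 140 and 206 on HFD (0.61, SE 0.35, adjusted p = 0.55). Rps12, also of the small subunit, had 0.54 (SE 0.33, adjusted p = 0.58) and Rpl32 of the large subunit 0.55 (SE 0.38, adjusted p = 0.62). The 5S particle genes Rpl5 and Rpl11 had 0.44 (SE 0.30) and 0.22 (SE 0.29). Rps6, the substrate of S6 kinase, had 0.41 (SE 0.32, adjusted p = 0.67), from 159 and 116 on NCD to 152 and 215 on HFD. It had -0.11 (SE 0.20) at 4 °C. Rps27a, made as a fusion with ubiquitin, had 0.33 (SE 0.37) on HFD and -0.20 (SE 0.20) at 4 °C.

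At the other end, Rps27 was near 0 on HFD, at 0.06 (SE 0.37), and lay below its place in the family. It was 1.41 and 1.35 log2 units above the median core gene on NCD and 1.04 and 1.18 above it on HFD. Rps27l had -0.10 (SE 0.40), Rpl39l -0.43 (SE 0.43), Rpl7l1 0.07 (SE 0.25), Rpl22l1 0.16 (SE 0.37), Rpl36al 0.24 (SE 0.30), Rps27rt 0.15 (SE 0.17) and Rps19bp1 0.22 (SE 0.28). Rps16 had -0.08 (SE 1.07), which its spread leaves without a direction. Leaving out NCD replicate 8, which was lowest for most core genes, cut the members' median to 0.10. Leaving out NCD replicate 6 raised it to 0.55. In the labels the sample name of NCD replicate 6 has the prefix of the 22 °C and 4 °C libraries, and the other 3 diet libraries share another prefix, so the value without it is the one within a prefix.

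**Figure D5:**
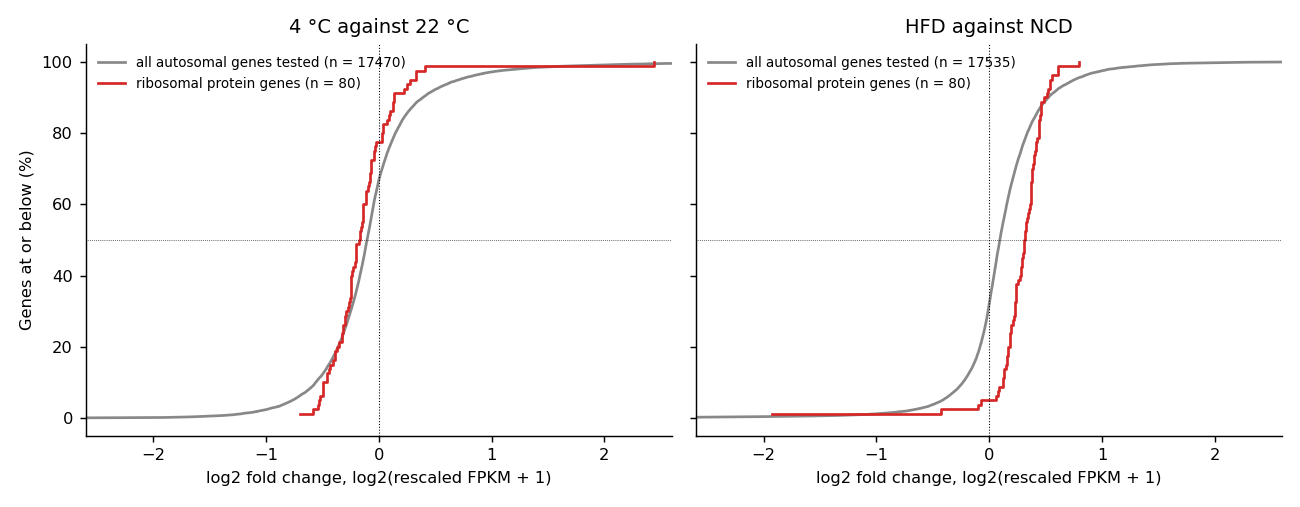
Cumulative share of genes (y axis, %) by log2 fold change (x axis, log2 of rescaled FPKM plus 1) for the 80 ribosomal protein genes tested (red) and all autosomal genes tested (grey). Left, 4 °C against 22 °C, with medians of -0.17 and -0.10 (0.23 and 0.07 in FPKM as deposited). Right, HFD against NCD, with medians of 0.31 and 0.09.

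Ribosomal proteins that the symbol rule leaves out gave similar levels. Fau, whose product yields a small-subunit protein, ranged from 83.2 to 148 rescaled FPKM, and Rack1, a small-subunit scaffold, from 66.9 to 143. At 4 °C their log2 fold changes were 0.10 and -0.01. On HFD they were 0.21 and 0.54.

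Related lists were read beside the family, by counts. At 4 °C limma called 7 of their genes, with adjusted p of 0.038 to 0.047. Leaving out any 1 of the 22 °C and 4 °C libraries lost all 7 calls (adjusted p of 0.058 to 0.18), as did dropping the filter on low values (0.11 to 0.12). Among all genes 2.73% were called higher and 4.41% lower. Of 70 tested genes of ribosome biogenesis, 2 were called lower at 4 °C and 0 higher, and 18 were lower and 13 higher in both libraries (median -0.03), beside 44.4% and 18.6% of all genes. The called genes were Nop10, of the box H/ACA particle that modifies rRNA (log2 fold change -1.06), and Rrp1b, a nucleolar processing factor (-0.73). Nmd3, the export adaptor of the large subunit, had 0.68 and Nob1, which trims small-subunit rRNA, 0.49, neither past the test. On HFD 60 of the 70 were positive (median 0.23, beside 0.09 over all genes). In both libraries 28 were higher, near the 33.4% of all genes. The highest were the box C/D proteins Nop58 at 0.66 and Nop56 at 0.65. The lowest were Nop10 at -0.34 and Pno1 at -0.15.

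Of 20 tested RNA polymerase I genes, which include subunits shared with other polymerases, 1 was called at 4 °C, Polr2e (-0.81), near the 4.41% of all genes called lower, with Polr2h next at -0.44. The highest were Polr1d at 0.38 and Rrn3 at 0.29. On HFD the list's median was 0.08, with Taf1d at 0.79, Ubtf at 0.30, Taf1a at -0.18 and Polr2k at -0.11.

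The list of initiation and elongation genes also holds genes outside these classes, among them Nap1l1. Of its 40 tested genes, 1 was called higher at 4 °C and 3 lower, beside 2.73% and 4.41% of all genes. Eef1a2, the elongation factor form of muscle and neurons, was higher (2.96), with 4.53 and 1.22 at 22 °C and 34.4 and 20.1 at 4 °C. Its values moved with the muscle markers. Eif4ebp1, the mTOR-controlled repressor of cap-dependent initiation, was lower (-1.09), from 85.8 and 78.01 at 22 °C to 37.6 and 38.1 at 4 °C. Pabpc1, the poly(A)-binding protein (-0.96), and Nap1l1 (-0.84), named after its values were seen, were lower too. Eif5 had 0.60 and was not called. On HFD Nap1l1 had 0.97 and Eif4a1 0.52, while Eef1a2 had -2.46 and Eif4a2 -0.50, and none was called.

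Of 18 regulators of these mRNAs, none was called at 4 °C by limma, with 4 at an unadjusted p under 0.05, beside 31.0% of all genes. Mtor had 0.67, Larp4 0.44, the S6 kinase gene Rps6kb1 -0.52 and Myc -0.41. On HFD, Myc, which drives ribosome biogenesis, had 0.94 and Max 0.55, with Mtor at -0.12 and Cnbp at -0.07. Mitochondrial ribosomal protein genes, serve the separate ribosome of mitochondria. On HFD their median was -0.09 over 79 genes, beside 0.09 over all genes, and 63 were negative. In both libraries 1 was higher and 12 were lower, beside 33.4% and 10.6% of all genes. The difference from the cytosolic set was not tested. At 4 °C it was 0.00 over 80 genes.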

How the data were processed

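BAT RNA was depleted of rRNA by the authors, made into directional libraries and sequenced as paired ends of 100 bases. Per the study's methods, reads were mapped to GRCm38 with TopHat2 (2.0.10) and quantified with Cufflinks (2.2.1 in the submitters' processing notes, another version in the methods) on Ensembl 87. The deposited values are FPKM per gene and library, without counts. How reads shared by near-identical copies were assigned is not given in the sources used here, and 279 ribosomal protein pseudogene rows summed to 33.9 to 65.4 FPKM a library.

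FPKM were rescaled to a common sum over autosomal mRNA and lncRNA genes (typed by GENCODE M21) and tested as log2(value + 1) with limma (3.58.1, R 4.3.3, trend), 4 libraries per comparison, genes of at least 0.1 FPKM in 2 of them, Benjamini-Hochberg over all genes, threshold 0.05. Scripts were tested on simulated data. Members, lists and alternatives were chosen with earlier results of these data known. Genes named with values were the 6 highest and 6 lowest log2 fold changes per comparison (mean of at least 1), the 5 highest and 5 lowest levels, paralogs, stalk and 5S genes, Rps6, Rps27a and 2 per direction of each related list. Rpl27 and Rpl37 and the genes set against the family median were picked after their values were seen. Replicates are single mice, and within each group they also differ in library kind, and on NCD in name prefix. The p-values measure these spreads together, with each gene's variance drawn toward a trend over all genes. Alternatives covered scaling, pseudocount, filter, samples, covariate, variance model and left-out libraries. Rpl13 was not analysed here, and some genes that the rule names are not reported here.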

Additional observations from a re-analysis of the deposited data

Results flagged for a closer look

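The 4 X-linked ribosomal protein genes lie outside the comparisons above, because both 22 °C libraries and NCD replicate 6 list every X-linked gene at 0. In the other libraries they were measured at levels like those of autosomal core genes, which is what drew attention to them. In the lower 4 °C library, Rpl10 had 173 FPKM as deposited, Rps4x 121, Rpl36a 90.02 and Rpl39 37.8. In HFD replicates 2 and 6 Rpl10 had 192 and 285, and in NCD replicate 8 it had 110. No comparison between groups was drawn from them.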

How the results depend on the processing

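The labels gave no pairs to analyse, because the 22 °C and 4 °C groups share no replicate number and NCD and HFD share only number 6. Each group holds 1 library of each kind, so the fit with library kind as a covariate compares libraries on the same side of the 100 FPKM cut. This matching was read from the data and not from the labels. In satellite share, 4 °C replicate 11 lay far below the other satellite-high libraries. The count of members past the threshold at 4 °C was 0, and it became 1 when rescaling used all autosomal rows, when at least 1 FPKM was required, with all 8 libraries in 1 fit, with library kind as a covariate (in 4 or 8 libraries), without the intensity trend, and after scaling to the median core gene. It stayed 0 without each replicate in turn. On HFD it was 0, became 3 with library kind as a covariate, and was 0 to 1 without each replicate, the 1 being Rpl3l without NCD replicate 6 or 8. The causes were not tested. Over all genes at 4 °C, calls went from 477 higher and 771 lower to 256 and 60 as deposited, 515 and 374 with median centring, and none without a filter or without 22 °C replicate 7 or either 4 °C replicate (limma). On HFD, where there were none, calls were 608 higher and 235 lower with the covariate, 646 and 91 with it in all 8 libraries, 474 and 50 with all 8 libraries in 1 fit, 12 and 3 as deposited, 639 and 448 without NCD replicate 6 and 135 and 90 without NCD replicate 8.

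Members higher in both 4 °C libraries numbered 9, and 23 as deposited (37.9% of all genes), 2 with all autosomal rows in the sum (12.9%) and 3 with quantile normalization (26.4%). Members lower in both numbered 32, and 2 as deposited (20.6%), 6 with all autosomal rows (27.9%) and 13 with median centring (34.0%). Members higher in both HFD libraries numbered 22, and 14 as deposited (39.9%), 42 with all autosomal rows (33.2%), 3 with median centring (23.0%), 52 with quantile normalization (21.9%) and 41 without the satellite genes (34.6%), a scale added after seeing the data. The members' median at 4 °C ranged from -0.26 to -0.076 without each replicate and was 0.23 as deposited, -0.021 with median centring and -0.30 with quantile normalization. It was -0.34 within the satellite-high and -0.054 within the satellite-low libraries. On HFD it ranged from 0.10 to 0.55 without each replicate. It kept its sign under the scalings named here, but fell from 0.31 to 0.12 with median centring. The log2 ratio of summed levels on HFD fell from 0.32 to 0.10 with that scaling. The log2 ratio of summed levels at 4 °C was 0.29 as deposited, 0.017 with median centring and -0.29 with quantile normalization.

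At 4 °C, single genes took the opposite sign as deposited for Rps19bp1 (0.23), Rps27l (0.028), Rplp2 (0.048), Rpl12 (0.27), Rpl11 (0.25), Rps6 (0.30), Rps27a (0.22), Rack1 (0.41), and with median centring for Rps19bp1 (0.0018), Rpl12 (0.019), Rpl11 (0.00086), Rps6 (0.048), Rack1 (0.16), and with quantile normalization for Rplp0 (-0.066), Rplp1 (-0.10), and without the 100 genes of highest mean in the sum for Rplp1 (-0.0073), and without the satellite genes in the sum for Rplp1 (-0.0070). At 4 °C, leaving out replicates in turn took the sign through 0 for Rplp0 from -0.055 to 0.23, Rplp1 from -0.0044 to 0.076, Rpl12 from -0.38 to 0.10, Rpl11 from -0.40 to 0.078, Rps6 from -0.25 to 0.021, Fau from -0.054 to 0.25, Rack1 from -0.072 to 0.061. On HFD, single genes took the opposite sign as deposited for Rps27l (0.069), Rps16 (0.084), Pno1 (0.0070), Polr2k (0.046), Mtor (0.036), Cnbp (0.10), and with a pseudocount of 0.1 for Rps16 (0.15), and with median centring for Rps27 (-0.13), Rpl7l1 (-0.11), Rpl22l1 (-0.027), Rplp2 (-0.0067), and with quantile normalization for Rpl7l1 (-0.040), Rps27rt (-0.027). On HFD, leaving out replicates in turn took the sign through 0 for Rpl39l from -1.04 to 0.18, Rps27l from -0.49 to 0.30, Rps16 from -1.59 to 1.44, Rps27 from -0.22 to 0.33, Rpl7l1 from -0.11 to 0.26, Rpl22l1 from -0.23 to 0.54, Rpl36al from -0.038 to 0.52, Rps19bp1 from -0.061 to 0.49, Rpl11 from -0.045 to 0.49, Rps27a from -0.0061 to 0.66, Fau from -0.14 to 0.56, Polr2k from -0.43 to 0.21, Mtor from -0.30 to 0.059, Cnbp from -0.47 to 0.33. Of the other single-gene values, 1064 kept their sign and their side of the threshold, 17 newly passed it and 36 no longer did, leave-one-out aside.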

Other observations

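Rows with a ribosomal protein name in the annotation but no symbol in the table were low, with Rps4l the highest at 9.47 to 18.2 rescaled FPKM.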
